A study of Mus musculus with 2 samples.

Results

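CpG-dense stretches of the autosomes that lie far from any annotated gene end were examined in mouse haploid embryonic stem cells. The genome was divided into fixed windows of 1 kb, and a window was taken as CpG-dense when the tables of both lines listed at least 30 CpGs in it and at least 10 of these had 10 or more reads in both. The members are the windows more than 5 kb from either end of every protein-coding or lncRNA gene in the RefSeq table. There were 838 members among 8758 CpG-dense autosomal windows, and the other 7920 lay within 5 kb of a gene end. Of the members, 570 lay inside genes and 268 outside. The libraries came from A129-2, a line on the 129Sv background, and from AOS-14, a line on the C57BL/6 background, with 1 library per line. Per the labels' protocols, both were made from AG-haploid embryos, taken here as androgenetic (all chromosomes from sperm), by sorting and growth in ES cell medium. No treatment, sex or passage is given in the sources used here, and the line and its strain cannot be told apart. Differences have no replicate check, and every test compares the reads of these 2 libraries, not the lines or strains. Bisulfite sequencing reads an unmethylated cytosine as thymine, so the methylation level of a CpG is its methylated reads over all its reads, and the level of a window is the mean over its compared CpGs.

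Methylated CpGs mutate readily to TpG, and most of the mammalian genome is therefore poor in CpGs. The exceptions are CpG islands, which are mostly kept unmethylated and hold the start sites of many genes. Some islands lie inside genes or between genes, where they can serve as alternative promoters, and these are known as intragenic and orphan islands. Dense CpGs also occur in repeated sequence, including transposable elements and tandem arrays, which DNA methyltransferases methylate in most tissues. Embryonic stem cells can hold low overall methylation, depending on the culture and the line.

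The members included both kinds of sequence, and examples are shown first because the results turn on the contrast between them. An island-like member is represented by a RefSeq promoter sequence of GRCm38.p6, from 250 bases before to 50 bases after an annotated start that lies inside a member window. Examples of such starts are given, printed 5′ to 3′ on the strand of the gene with every CG in capitals. Among starts with at least 10 compared CpGs, Pid1 (an adaptor protein gene of insulin signalling, chr1:84284596-84284895, minus strand) had the highest mean level of both lines, at 5.48% in A129-2 against 8.40% in AOS-14. Enah (an actin regulator, chr1:182019931-182020230, minus strand) had the lowest, at 0.60% in A129-2 against 1.28% in AOS-14. Tmem150c (a membrane protein, chr5:100159374-100159673, minus strand) had the largest difference, at 2.36% in A129-2 against 5.54% in AOS-14. The Enah sequence holds 49 CGs in 300 bases, the Tmem150c sequence 21 and the Pid1 sequence 20.
Pid1: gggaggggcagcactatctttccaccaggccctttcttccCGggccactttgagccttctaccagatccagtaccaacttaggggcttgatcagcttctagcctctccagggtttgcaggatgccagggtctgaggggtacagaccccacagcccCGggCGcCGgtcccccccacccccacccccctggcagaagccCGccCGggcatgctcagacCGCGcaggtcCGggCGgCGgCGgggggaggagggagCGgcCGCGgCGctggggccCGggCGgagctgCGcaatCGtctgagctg
Enah: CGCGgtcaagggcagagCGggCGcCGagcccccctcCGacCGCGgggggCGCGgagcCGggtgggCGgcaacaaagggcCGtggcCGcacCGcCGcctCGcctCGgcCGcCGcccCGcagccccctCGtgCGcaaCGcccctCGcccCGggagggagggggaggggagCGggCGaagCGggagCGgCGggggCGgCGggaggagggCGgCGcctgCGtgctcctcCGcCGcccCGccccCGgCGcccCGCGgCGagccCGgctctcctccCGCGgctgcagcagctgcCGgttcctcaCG
Tmem150c: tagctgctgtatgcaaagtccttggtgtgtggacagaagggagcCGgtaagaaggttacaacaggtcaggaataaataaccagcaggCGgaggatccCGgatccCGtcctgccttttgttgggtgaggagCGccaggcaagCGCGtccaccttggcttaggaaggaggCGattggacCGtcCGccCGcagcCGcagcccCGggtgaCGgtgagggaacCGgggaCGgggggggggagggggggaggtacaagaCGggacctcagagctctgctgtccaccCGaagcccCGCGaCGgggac

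The second kind of member repeated itself over the genome. A run of 5 neighbouring CpGs, with steps of at most 60 bp, was called recurrent when another place in the tables had the same steps and the same bases beside each CpG, read in either direction. Member windows that shared at least 3 such runs were linked into groups, numbered by size. The reference genome was not used here, so the members' own sequence cannot be printed. The following RefSeq promoters are not members, but hold runs of group 1, group 2 and group 5, and were chosen because they hold the most runs of their group. Capitals mark the CGs that belong to a run of the group, and the other CGs are in lower case. The group 1 copy is the promoter of the predicted gene Gm35240 (chr12:77553461-77553760, plus strand), the group 2 copy that of A230004M16Rik (chr11:41710094-41710393, plus strand) and the group 5 copy that of Gm40847 (chr12:18853705-18854004, plus strand).
Group 1 copy: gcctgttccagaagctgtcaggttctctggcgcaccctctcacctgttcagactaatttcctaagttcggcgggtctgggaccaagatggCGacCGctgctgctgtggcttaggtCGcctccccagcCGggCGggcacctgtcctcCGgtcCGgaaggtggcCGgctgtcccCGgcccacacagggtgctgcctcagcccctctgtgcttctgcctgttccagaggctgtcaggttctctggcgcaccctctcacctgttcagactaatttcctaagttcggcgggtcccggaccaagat
Group 2 copy: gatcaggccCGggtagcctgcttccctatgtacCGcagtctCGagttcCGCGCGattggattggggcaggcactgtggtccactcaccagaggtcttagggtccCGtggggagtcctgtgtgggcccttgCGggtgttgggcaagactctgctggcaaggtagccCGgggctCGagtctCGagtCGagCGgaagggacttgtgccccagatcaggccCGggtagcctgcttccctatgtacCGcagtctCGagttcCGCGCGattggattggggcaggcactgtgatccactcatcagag
Group 5 copy: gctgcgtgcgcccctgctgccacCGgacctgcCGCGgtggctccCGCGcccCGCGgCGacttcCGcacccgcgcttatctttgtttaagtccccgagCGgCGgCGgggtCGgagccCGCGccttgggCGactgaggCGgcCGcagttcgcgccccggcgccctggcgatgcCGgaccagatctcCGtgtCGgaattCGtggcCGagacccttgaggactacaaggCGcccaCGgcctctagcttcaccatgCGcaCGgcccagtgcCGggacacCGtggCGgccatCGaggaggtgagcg

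The group 2 copy began to repeat itself after 208 bases, with 97.8% identity over the 92 bases that overlap, and the group 1 copy after 212 bases, with 96.6% identity over 88 bases. The group 5 copy had no such repeat, since its best shift of 50 bases or more gave 41.8% identity. The promoters with the most runs of group 3 and group 4 were read in the same way and are not printed. The group 3 copy, the promoter of Gm5636, repeated itself after 206 bases with 98.9% identity over 94 bases. For group 4 the promoter of Gm41315 held only 1 run, so its 41.2% identity at its best shift says little about that group. Its 8 compared CpGs had 24.0% in A129-2 against 37.2% in AOS-14, above the highest group 4 window (21.0% in A129-2 and 18.9% in AOS-14). In groups 1 and 2 the member windows showed the unit length of the printed copy. In 38 of 39 group 2 windows at least 5 pairs of CpGs lay exactly 208 bp apart, which was the most common distance of 100 bp or more in that group. In 58 of 59 group 1 windows at least 5 pairs lay 212 bp apart, and in 32 of 33 group 4 windows at least 5 pairs lay 214 bp apart. In group 3 the most common distance was 204 bp rather than 206 bp, with that many pairs in 16 of 33 windows. Among the 602 windows in no group, 21.3% had 5 pairs at 208 bp and 20.6% at 212 bp. Spacing at 1 distance was thus shared by nearly all windows of groups 1, 2 and 4. Each distance was picked as the most common in windows already grouped by shared spacing. These counts therefore describe the groups and are not a test. Repeat annotation was not used here, and no repeat family was assigned.

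Most members were almost unmethylated in both lines. The 838 windows had a median level of 2.82% in A129-2 (quartiles 2.18% and 6.65%) and 3.53% in AOS-14 (quartiles 2.83% and 6.81%). Levels ran from 0.630% to 41.4% in A129-2 and from 0.663% to 63.7% in AOS-14. In A129-2, 611 members were under 5% and 0 reached 50%, while in AOS-14, 586 were under 5% and 41 reached 50%. The upper tail was therefore longer in AOS-14. The median window had 42 listed CpGs and 36 compared CpGs, with a median depth of 111 reads per CpG in A129-2 against 115 in AOS-14. Depth per window ran from 14.5 to 15447 reads per CpG in A129-2 and from 17.8 to 12523 in AOS-14.

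The low levels rested largely on CpGs inside the motif CCGG, at which restriction enzymes cut in some bisulfite protocols. These made up 18.9% of the 34571 compared CpGs of the members. CpGs in CCGG had a mean level of 14.2% in A129-2 against 19.4% in AOS-14, and all other member CpGs 2.42% in A129-2 against 4.70% in AOS-14. Outside CCGG, 51.2% of CpGs in A129-2 against 42.8% in AOS-14 had no methylated read at all. With CCGG left out, the median window level was 0.734% in A129-2 against 0.975% in AOS-14. Whether the preparation of the libraries raised levels at CCGG was not tested, so levels of a few percent are read here only as low.

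Windows outside genes had a wider spread than windows inside genes. Members inside genes had a median of 2.62% in A129-2 against 3.24% in AOS-14, and members outside genes 4.92% in A129-2 against 5.27% in AOS-14. The upper quartile was 3.61% inside and 11.6% outside in A129-2, and 4.36% inside and 13.7% outside in AOS-14. The CpG-dense windows within 5 kb of a gene end had a median of 2.43% in A129-2 against 3.05% in AOS-14, with an upper quartile of 2.99% in A129-2 against 3.68% in AOS-14. Of those 7920 windows 13 reached 25% in AOS-14, against 66 of the 838 members. Members and windows near gene ends thus shared a low main body of values and differed in the tail. Without the windows in which over 50% of the CpGs lay in recurrent runs, the members outside genes had 2.64% in A129-2 against 3.41% in AOS-14 (90 windows), and those inside genes 2.50% in A129-2 against 3.17% in AOS-14 (483 windows). The median inside genes minus that outside was -2.30 points in A129-2 against -2.04 in AOS-14 over all members, and -0.138 points in A129-2 against -0.236 in AOS-14 without the recurrent windows. Without chromosome 10 it was -0.632 points in A129-2 against -0.655 in AOS-14.

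**Figure D1:**
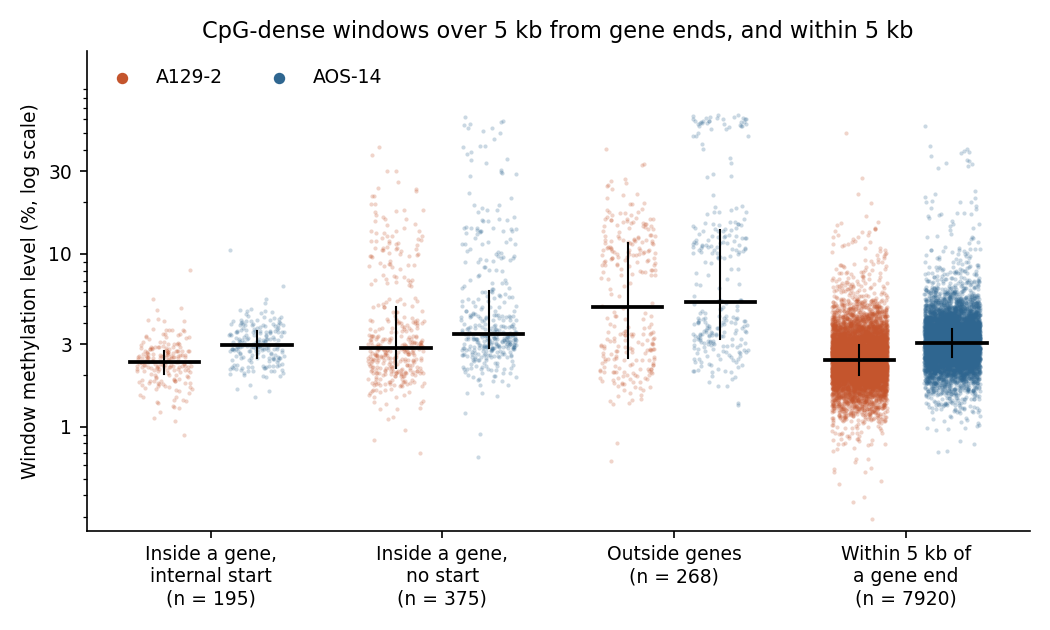
Methylation level of each CpG-dense window (points, log scale) in A129-2 (left of each pair) and AOS-14 (right), for members inside genes with and without an internal start, members outside genes, and windows within 5 kb of a gene end. Thick bars are medians and thin bars span the quartiles over windows; windows with an internal start stay at or below 10.5%, while members outside genes reach 63.7% in AOS-14.

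Members that hold an annotated start inside a longer gene were uniformly low. Such starts belong to shorter transcripts that begin within the gene, and 195 of the 570 windows inside genes (34.2%) held 1 or more of them, from 189 genes. These 195 windows had a median of 2.38% in A129-2 against 2.98% in AOS-14, and a highest level of 8.12% in A129-2 against 10.5% in AOS-14. The 375 windows inside genes without an annotated start had medians of 2.86% in A129-2 against 3.44% in AOS-14, and reached 41.4% in A129-2 against 62.0% in AOS-14. Leaving out windows with over 50% of CpGs in recurrent runs, the 189 windows with a start had medians of 2.40% in A129-2 against 2.99% in AOS-14. The 294 without a start then had 2.59% in A129-2 against 3.21% in AOS-14, and reached 21.7% in A129-2 against 33.8% in AOS-14. Of the windows within 5 kb of a gene end, 56.0% held an annotated start. In the 168 promoter sequences with at least 10 compared CpGs, the median level was 2.30% in A129-2 against 2.89% in AOS-14. All 4639 CpGs that the tables list in the promoter sequences of the 231 internal starts are CG in the RefSeq sequence.

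The most CpG-rich member lay at an internal start of Dnmt3a, which encodes a methyltransferase that sets new methylation. That window (chr12:3807001-3808000) listed 151 CpGs and had 1.93% in A129-2 from 17197 reads and 2.88% in AOS-14 from 15910 reads. The internal starts of Larp1, an RNA-binding protein gene (144 CpGs), Zfp800, a zinc-finger gene (135 CpGs), and Ubtf, a factor of ribosomal RNA transcription (121 CpGs), gave the next highest CpG numbers inside genes. Their levels were 2.11% at Larp1, 1.99% at Zfp800 and 2.19% at Ubtf in A129-2, and 2.55%, 2.91% and 2.73% in AOS-14 at the same genes. Outside genes the most CpG-rich window (chr15:85671001-85672000, 120 CpGs, 30.5 kb from D130051D11Rik) had 1.98% in A129-2 against 3.15% in AOS-14. Across the members the level was lower where CpGs were denser, with medians of 3.62% in A129-2 against 4.36% in AOS-14 at 30 to 39 CpGs, 2.93% in A129-2 against 3.59% in AOS-14 at 40 to 59, and 2.18% in A129-2 against 2.82% in AOS-14 at 60 or more. These medians include the windows with over 50% of CpGs in recurrent runs, which had a median of 37 listed CpGs against 45 in the other members. How far those windows shape the trend was not tested. At the limit of the rule, 131 windows with 28 or 29 CpGs had medians of 6.92% in A129-2 against 8.60% in AOS-14, and the 105 members with 30 or 31 had 4.55% in A129-2 against 5.39% in AOS-14.

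Windows among the lowest were also intragenic. A window in Pkd2, a cation channel gene, had 1.14% in A129-2 against 1.19% in AOS-14. Kif27, a kinesin gene, had 0.834% in A129-2 against 1.57% in AOS-14, and an internal start of the clock gene Arntl had 1.22% in A129-2 against 1.48% in AOS-14. In these 3 windows the adjusted p ran from 0.0509 to 0.846 (Fisher's exact test, Benjamini-Hochberg adjustment over all windows), so no difference was detectable at 633 to 2690 reads in A129-2 against 620 to 3095 in AOS-14. Outside genes the lowest window (chr12:21899001-21900000, group 5, 15.4 kb from Gm40857) had 0.630% in A129-2 against 1.36% in AOS-14. Its neighbour (chr12:21898001-21899000) had 0.804% in A129-2 against 2.46% in AOS-14.

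The 570 windows inside genes fell in 466 genes, of which 440 code for protein, and 371 genes held a single window. There were 15 genes with 3 or more. Ebf3, a neuronal transcription factor gene with 4 windows, had levels from 0.897% to 3.56% in A129-2 and from 2.04% to 4.51% in AOS-14. Shank1, a scaffold gene of excitatory synapses with 4 windows, had 2.81% to 6.86% in A129-2 against 2.86% to 7.09% in AOS-14. The heart and endoderm factor gene Gata4 had 2.10% to 3.25% in A129-2 against 3.55% to 5.34% in AOS-14, and the calcium channel gene Cacna1a 1.11% to 3.07% in A129-2 against 2.79% to 3.08% in AOS-14. Levels in these 4 genes stayed under 8% in both lines. In Pax2, a kidney and eye patterning gene, the level was 4.11% to 7.06% in A129-2 against 3.72% to 9.76% in AOS-14, and both windows with an internal start were slightly higher in A129-2, at 5.48% against 4.74% and 4.11% against 3.72% in AOS-14.

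Other genes with several windows mixed low and intermediate ones. Rbfox3, a neuronal splicing factor gene, had neighbouring windows of 2.02% and 2.23% in A129-2 against 2.52% and 3.51% in AOS-14. Another window of the gene (chr11:118891001-118892000) had 16.3% in A129-2 against 28.8% in AOS-14. Lmtk3, a kinase gene, had 21.7% and 21.5% in A129-2, against 29.8% and 33.8% in AOS-14, in adjacent windows (chr7:45793001-45795000), and 4.29% in A129-2 against 5.62% in AOS-14 in a window of the same gene 3 kb further on. Shroom3, a regulator of apical constriction, ran from 2.21% to 9.67% in A129-2 and from 2.89% to 14.1% in AOS-14. Low and intermediate dense windows thus stood within the same gene.

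Flg, Ahnak2 and Syne1 had intermediate levels in all their windows. Flg encodes filaggrin, a skin barrier protein made of tandem repeats, and its 4 windows (chr3:93280001-93287000) had 10.8% to 13.6% in A129-2 against 29.5% to 42.1% in AOS-14. Ahnak2, another gene with coding repeats, had 6.51% to 11.2% in A129-2 against 11.4% to 13.96% in AOS-14 in 3 windows. The 3 windows of Syne1, a nuclear envelope gene, had 10.9% to 12.7% in A129-2 against 14.2% to 16.3% in AOS-14. The windows of these 3 genes all had over 50% of their CpGs in recurrent runs. The remaining genes with 3 windows, Pde4d, Dab2ip, Zfhx3 and Speg, had highest levels between 2.61% and 4.94% in A129-2 and between 2.88% and 5.71% in AOS-14.

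Gene lists were read for the genes that host a member. Of 51 homeobox, T-box and other developmental regulators, 18 hosted 29 windows, with a median of 2.74% in A129-2 against 3.72% in AOS-14. None of the 29 differed by 25 points, and 15 passed the test at an adjusted p under 0.05 with summed reads lower in A129-2 and 0 with summed reads higher, which is 15 of 29 against 55.3% lower over all tested windows. One of these 15, a Pax2 window (chr19:44756001-44757000), had the higher mean level in A129-2. Runx1, a blood stem cell factor gene, had 2.55% in A129-2 against 3.08% in AOS-14 at an internal start, and Foxp1 3.10% in A129-2 against 4.10% in AOS-14. Of 27 DNA methylation and chromatin regulators, 4 hosted 6 windows with a median of 2.06% in A129-2 against 3.61% in AOS-14. These lay in Dnmt3a, in the maintenance methyltransferase gene Dnmt1 (3.01% in A129-2 against 3.91% in AOS-14), in the deacetylase gene Hdac4, and in Kdm2b, whose protein binds unmethylated CpGs (1.48% and 2.67% in A129-2, against 3.44% and 4.47% in AOS-14).

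Members in imprinted hosts were low in both lines. A window in Grb10, a growth inhibitor gene, had 3.98% in A129-2 against 3.91% in AOS-14, and adjacent windows in Gnas, a G protein gene, had 6.66% and 7.47% in A129-2, against 6.78% and 4.55% in AOS-14. Among 39 axon guidance and adhesion genes, 6 hosted 7 windows, of which 1 in Pcdh15 was called lower, against 5.04% of all tested windows. That Pcdh15 window belonged to group 2, with 86.7% of its CpGs in recurrent runs. Among 18 pluripotency genes, Esrrb, an orphan nuclear receptor gene, hosted 1 window with 3.86% in A129-2 against 4.14% in AOS-14. Among 18 germline genes, 0 hosted a member. Hspg2, a basement membrane proteoglycan gene, held the only window of the 22 matrix genes, with 8.46% in A129-2 against 13.8% in AOS-14. Of 30 developmental signalling genes, Ptch1 had 2.12% in A129-2 against 2.43% in AOS-14, and Ptprs 3.34% in A129-2 against 4.42% in AOS-14.

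The lines were then compared window by window. The level was lower in A129-2 in 730 of the 838 members (87.1%), with a median difference of -0.78 points. This share is near that of all tested windows (88.3%) and of CpG-dense windows near gene ends (86.7%). A window was called when its summed reads differed at an adjusted p under 0.05 (Fisher's exact test, Benjamini-Hochberg adjustment over 51142 windows) and its mean level by at least 25 points. Over all tested windows 5.04% were called lower and 0.0137% higher. Of the members 44 were called lower (5.25%) and 0 higher, a share near that of all windows. The 66 members at 25% or more in AOS-14 were the ones in which a call of lower was possible, and they include all 44. Without a minimum difference, 394 members (47.0%) passed the test with summed reads lower in A129-2 and 18 (2.15%) with summed reads higher. Over all windows 55.3% were lower and 0.978% higher. The direction of the mean level differed in some of these, and by the mean level 390 were lower and 22 higher. Of the 7920 windows near gene ends 5 were called lower. The 44 called members had median levels of 15.9% in A129-2 against 57.1% in AOS-14, and in 40 of them every compared CpG was lower in A129-2.

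Calls lay mostly outside genes, where 34 of 268 members were called, against 10 of 570 inside genes. A call of lower was possible in the 43 members outside genes and 23 inside that reached 25% in AOS-14. The 195 windows with an internal start reached at most 10.5% in AOS-14, so none could be called lower. On autosomes other than chromosome 10, 9 of 194 members outside genes were called (4.64%, against 5.04% of all tested windows), and 4 of 530 inside genes. Inside genes the largest differences were in Afg1l, a mitochondrial ATPase gene (chr10:42375001-42376000), with 15.8% in A129-2 against 57.7% in AOS-14, and in Pcdh15, a cadherin gene of hair cell tip links (chr10:73582001-73583000), with 17.5% in A129-2 against 56.5% in AOS-14. For the read-weighted level, the exact 95% binomial interval in Pcdh15 was 19.8% to 23.0% in A129-2 against 53.2% to 56.6% in AOS-14, and such intervals cover counting error only. Otogl, an inner ear matrix gene (chr10:107846001-107847000), had 19.6% in A129-2 against 55.8% in AOS-14. A Flg window had 11.6% in A129-2 against 42.1% in AOS-14. Depth was 6639 reads per CpG in A129-2 against 6062 in AOS-14 in Afg1l, and 4804 in A129-2 against 4797 in AOS-14 in Otogl. The median member had 111 in A129-2 against 115 in AOS-14. Pcdh15 (91.4 in A129-2, 114 in AOS-14) and Flg (86.9 in A129-2, 99.6 in AOS-14) were near that. In Afg1l, Otogl and Pcdh15 a recurrent run was found at 392 places. Whether reads of other copies enter these levels was not tested, so they are not read as levels of the loci alone. Outside genes the largest differences were at chr13:16607001-16608000, 249 kb from Sugct (12.2% in A129-2 against 60.6% in AOS-14), and at chr11:73617001-73618000, 13.5 kb from the olfactory receptor gene Olfr384 (15.4% in A129-2 against 62.9% in AOS-14). In these 6 windows all compared CpGs were lower in A129-2.

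**Figure D2:**
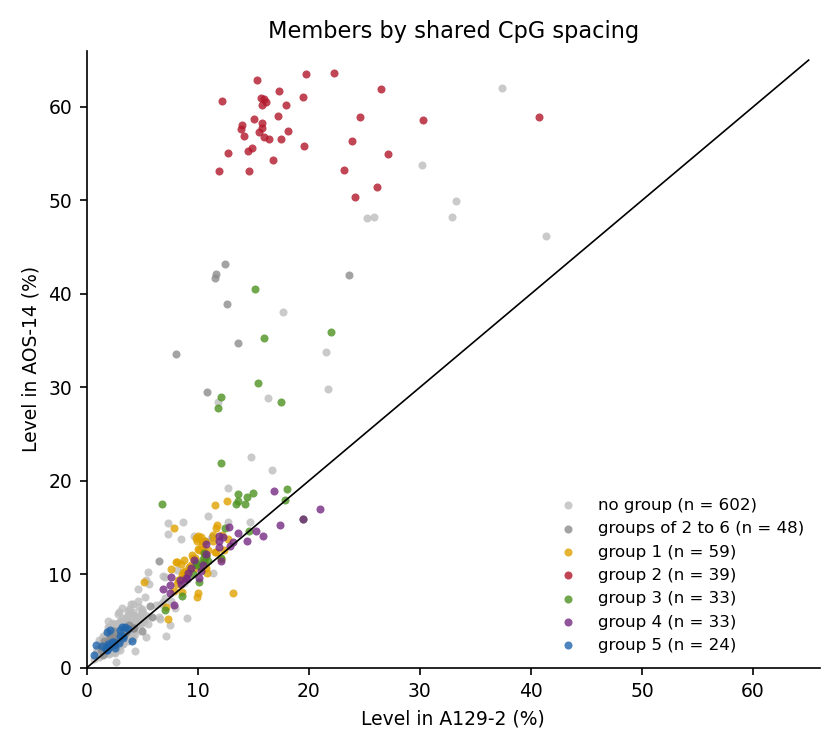
Level of each member in A129-2 (horizontal axis, %) against AOS-14 (vertical axis, %), coloured by the group of windows that share CpG spacing, with a line at equal levels. The 39 windows of group 2 lie above 50% in AOS-14 and between 11.9% and 40.7% in A129-2; groups 1 and 4 lie near the line between 5.15% and 21.0% in A129-2, and group 5 lies below 5% in both lines.

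Recurrent spacing went with the higher levels. In 265 members (31.6%) over 50% of the CpGs lay in recurrent runs, and these windows had medians of 10.1% in A129-2 against 11.5% in AOS-14. The other 573 had 2.51% in A129-2 against 3.19% in AOS-14. The recurrent windows held 43 of the 44 calls and all 41 windows that reached 50% in AOS-14. The remaining call (chr7:85175001-85176000, 19.1 kb from the pheromone receptor gene Vmn2r67) had 15.2% in A129-2 against 40.5% in AOS-14, with 45.2% of its CpGs in recurrent runs. Recurrence alone did not go with a high level, since the 240 recurrent windows within 5 kb of gene ends (3.03%) had medians of 2.45% in A129-2 against 3.10% in AOS-14. Reads that match several copies cannot be placed with certainty, their treatment is not given in the sources used here, and windows of a group may share reads and are not independent.

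The groups differed in level and in the gap between the lines. Group 1, with 59 windows of which 46 were on chromosome 10, had medians of 9.93% in A129-2 against 11.5% in AOS-14. Group 2, with 39 windows of which 31 were on chromosome 10, had 16.4% in A129-2 against 57.7% in AOS-14. Group 3, with 33 windows on 14 chromosomes, had 12.1% in A129-2 against 17.5% in AOS-14. Group 4, with 33 windows on 10 chromosomes, had 10.8% in A129-2 against 12.2% in AOS-14. Group 5, with 24 windows all on chromosome 12, had 2.34% in A129-2 against 2.74% in AOS-14. Groups 1 and 4 were intermediate with small gaps. The median difference was -1.59 points in group 1, where summed reads were lower at an adjusted p under 0.05 in 49 of 59 windows and higher in 3, and -0.68 points in group 4, with 16 of 33 lower and 6 higher. Group 2 reached 50% in AOS-14 alone, and group 5 was as low as the windows in no group (2.56% in A129-2 against 3.20% in AOS-14, 602 windows). None of the windows in the 5 groups held an internal start.

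Group 2 accounted for 38 of the 44 calls, and its level was lower in A129-2 in all 39 windows, with a median difference of -41.4 points. Of all tested windows, 88.3% had the lower level in A129-2 and 5.04% were called lower. Over the 39 windows, levels ran from 11.9% to 40.7% in the A129-2 library and from 50.4% to 63.7% in the AOS-14 library. These windows may share reads and are not replicates of a line. Their ranges therefore describe the windows of these libraries and not the spread of the lines. The window that was not called (chr18:64049001-64050000, 59.2 kb from Wdr7) had 40.7% in A129-2 against 58.9% in AOS-14. The longest unbroken stretch of members was a group 2 array of 8 windows (chr10:27818001-27826000), next to Gm30228, with 13.9% to 19.5% in A129-2 against 56.8% to 61.7% in AOS-14. Inside genes group 2 windows lay in Afg1l, Pcdh15, Otogl, the neuron navigator gene Nav3 (24.2% and 23.1% in A129-2, against 50.4% and 53.2% in AOS-14), 1700020G17Rik, and the sodium channel regulator gene Fgf14 (26.1% in A129-2 against 51.5% in AOS-14). Group 2 CpGs outside CCGG had means of 16.8% in A129-2 against 56.5% in AOS-14, so the gap did not rest on CCGG.

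The same spacing outside the members had like values. Another 244 windows, each with at least 3 runs of group 2 and at least 5 compared CpGs but not members, had medians of 19.4% in A129-2 against 55.3% in AOS-14. All 244 were lower in A129-2, and 193 were called. Over all tested windows 88.3% were lower and 5.04% were called lower. The 244 windows were chosen for group 2 runs and may share reads with its members, so they are not independent of them. On autosomes other than chromosome 10, the 8 member windows of group 2 had 23.1% in A129-2 against 59.7% in AOS-14, and 7 were called. The 13 windows of group 1 on those autosomes had 9.93% in A129-2 against 9.35% in AOS-14, and 8 of them were higher in A129-2, while on chromosome 10, 45 of 46 were lower in A129-2. The 192 non-member windows with group 1 runs, which may likewise share reads with members, had 10.3% in A129-2 against 12.7% in AOS-14, with 0 called.

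Chromosome 10 stood apart in number and depth. It held 114 members, which were 21.6% of its CpG-dense windows, while on the other 18 autosomes the share ran from 5.06% to 14.7%. Of these 114 windows 74 lay outside genes and 92 were recurrent, and their medians were 10.4% in A129-2 against 12.6% in AOS-14. Members on the other autosomes had 2.70% in A129-2 against 3.35% in AOS-14. The median depth of the chromosome 10 members was 1320 reads per CpG in A129-2 against 1366 in AOS-14, against 104 in A129-2 and 108 in AOS-14 on the other autosomes, while CpG-dense windows near gene ends on chromosome 10 had 96.8 in A129-2 against 102 in AOS-14. Chromosome 10 is the first chromosome in both deposited tables, and whether the placing of reads with several matches favoured it was not tested. It held 31 of the 44 calls, which leaves 13 calls without chromosome 10. For this reason neither the number of members on chromosome 10 nor their depth is read as a property of that chromosome.

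**Figure D3:**
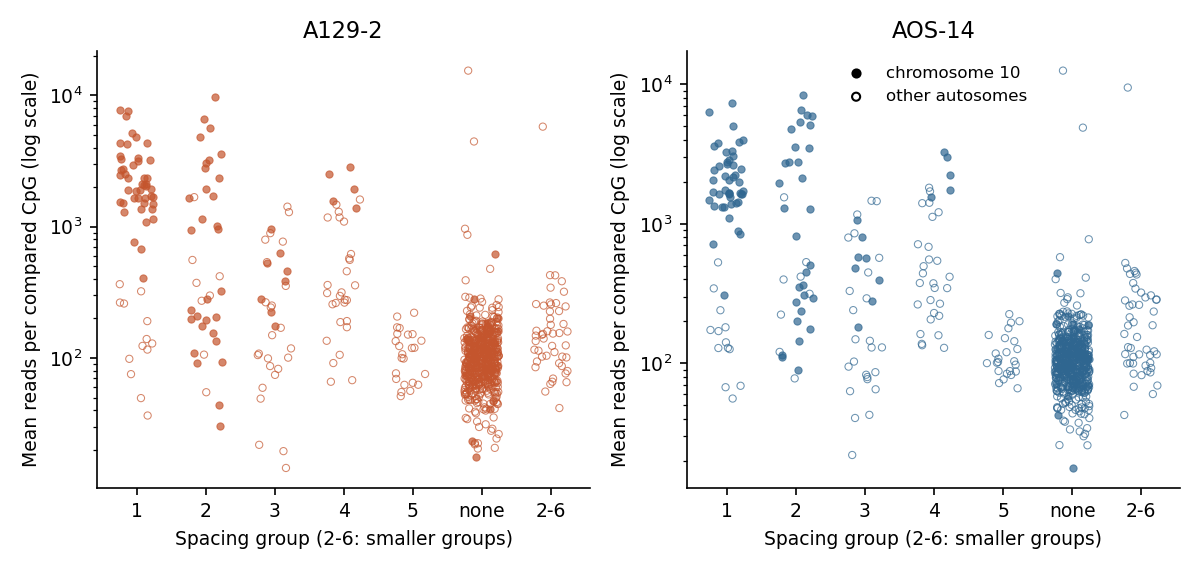
Mean reads per compared CpG (log scale) of each member in A129-2 (left) and AOS-14 (right) by spacing group, with filled points on chromosome 10 and open points on the other autosomes. Group 1 has a median of 1701 reads per CpG in A129-2 against 1643 in AOS-14, with the chromosome 10 windows on top, against 101 in A129-2 and 104 in AOS-14 for windows of no group.

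The other groups held fewer calls. Group 3 had 1 call, although 7 of its 33 windows reached 25% in AOS-14. Groups 1, 4 and 5 had 0 calls and no window at 25% in AOS-14. Smaller groups of 2 to 6 windows, 15 in all with 48 windows, had 5 calls. A group of 4 windows, 3 of them on chromosome 11 and 1 in the glycosyltransferase gene Galnt11 on chromosome 5, had 8.06% to 23.6% in A129-2 against 33.6% to 43.2% in AOS-14, and its calls included a window in Abr (11.5% in A129-2 against 41.7% in AOS-14). The 4 Flg windows formed another, with 2 calls.

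A few members were well methylated in both lines. A window in Tiam1, an activator of Rac (chr16:89963001-89964000), had 37.4% in A129-2 against 62.0% in AOS-14. In all, 12 members reached 25% in A129-2. Of the 69 members at 20% or more in AOS-14, 64 were recurrent and 4 held no recurrent run at all. These 4 were chosen after their values were seen. They are the Rbfox3 window, both Lmtk3 windows and a window 268 kb from Gm13990 (chr2:116535001-116536000), which had 25.9% in A129-2 against 48.2% in AOS-14 with all 28 compared CpGs lower in A129-2.

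Of the members 18 (2.15%) had summed reads higher in A129-2 at an adjusted p under 0.05 (Fisher's exact test), against 0.978% of all tested windows. Among these 18 windows the mean level differed by at most 5.24 points and the read-weighted level by at most 9.85 points. The window with the largest difference in mean level lay in Acnat1, an acyltransferase gene, and belonged to group 1, with 13.2% in A129-2 against 7.97% in AOS-14 (Fisher's exact test, adjusted p = 2.10e-41). A window 5.88 kb from the Wnt inhibitor gene Dkk1 had a mean level of 9.07% in A129-2 against 5.34% in AOS-14. Its read-weighted level was 14.4% in A129-2 (exact 95% binomial interval 13.3% to 15.5%), against 4.54% in AOS-14 (3.95% to 5.20%). Both were chosen after their values were seen.

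Distance from genes changed the make-up of the members more than the level of windows that were not recurrent. Members 5 to 10 kb from a gene end had medians of 2.72% in A129-2 against 3.36% in AOS-14, and 14.9% of the 242 were recurrent. The 85 members more than 100 kb away had 10.2% in A129-2 against 11.4% in AOS-14, and 83.5% were recurrent. Among windows that were not recurrent, those 5 to 10 kb away had 2.57% in A129-2 against 3.22% in AOS-14, and the 14 more than 100 kb away had 2.56% in A129-2 against 3.25% in AOS-14. The farthest window (chr3:44192001-44193000, group 4), 1087 kb from 2610316D01Rik, had 15.8% in A129-2 against 14.1% in AOS-14 (Fisher's exact test, adjusted p = 0.105). The next ones, at 700 kb, 626 kb and 509 kb, belonged to groups 4, 1 and 1 and had 8.67% to 10.4% in A129-2 against 10.3% to 11.0% in AOS-14. At the limit of the rule, windows 4 to 5 kb from a gene end had 2.88% in A129-2 against 3.30% in AOS-14, and members at 5 to 6 kb had 2.61% in A129-2 against 3.24% in AOS-14.

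**Figure D4:**
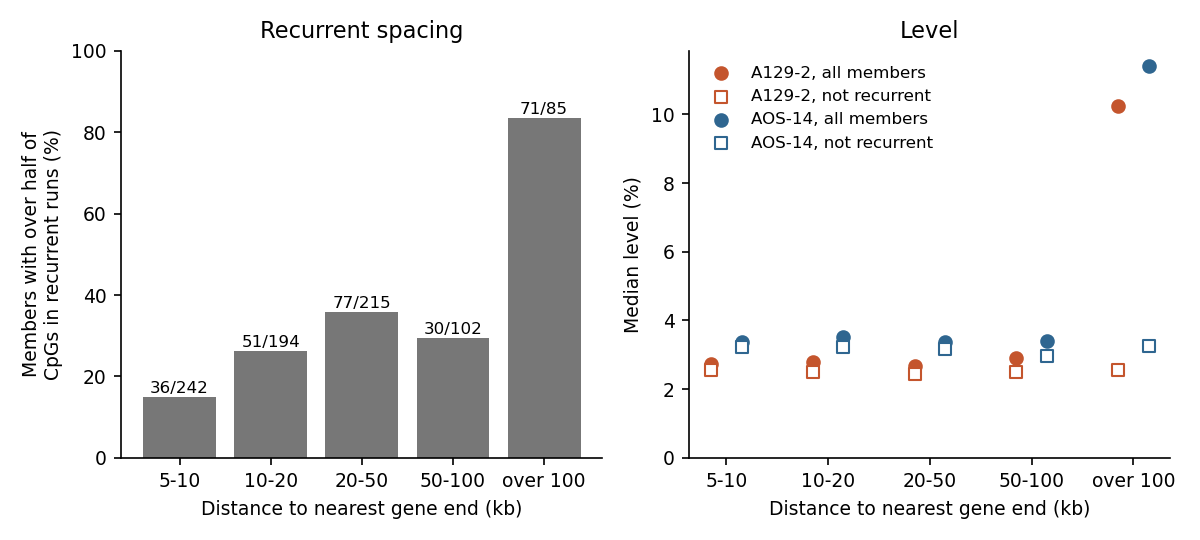
Share of members with over 50% of CpGs in recurrent runs (left panel, with counts) and median window level (right panel, %) by distance to the nearest gene end, for all members (circles) and those not recurrent (squares), in A129-2 (left of each pair) and AOS-14. The share is 14.9% at 5 to 10 kb and 83.5% over 100 kb, while the squares stay between 2.45% and 3.25%.

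Some members lie far from protein-coding and lncRNA gene ends but over genes of other types. There were 65 of these, with medians of 2.77% in A129-2 against 3.31% in AOS-14, and 1 was called lower, against 5.04% of all tested windows. Among them 27 overlapped pseudogenes, 14 transcribed pseudogenes, 7 tRNA genes and 7 annotated miRNA genes. Of the 7 windows with tRNA genes, 5 lay within 31 kb of each other on chromosome 1 (chr1:171072001-171103000), with 2.08% to 4.22% in A129-2 against 2.32% to 4.24% in AOS-14. Members with hairpins were low, with a highest level of 3.08% in A129-2 against 3.31% in AOS-14. The window of Mirlet7i (chr10:122985001-122986000), a let-7 gene that restrains growth and self-renewal programmes, had 1.41% in A129-2 against 2.47% in AOS-14 over 71 CpGs. The window of Mir193a (chr11:79711001-79712000, 97 listed CpGs), whose human counterpart is silenced by methylation in some leukaemias, had 1.64% in A129-2 against 2.16% in AOS-14. A mature RefSeq sequence of each that lies inside the window, with the seed (bases 2 to 8) in capitals, shows which miRNAs these low windows belong to.
mmu-let-7i-5p: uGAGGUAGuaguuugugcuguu
mmu-miR-193a-5p: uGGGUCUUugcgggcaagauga

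Members also clustered along chromosomes. The 5 Mb from 20 to 25 Mb of chromosome 12 held 16 members, 15 of them recurrent, with 0.630% to 4.10% in A129-2 against 1.36% to 4.40% in AOS-14. The 5 Mb from 145 to 150 Mb of chromosome 4 also held 16, of which 14 were recurrent, with 1.35% to 4.26% in A129-2 against 2.10% to 4.24% in AOS-14. The chromosome 4 windows lie among zinc-finger genes such as Zfp978, Zfp984 and Zfp993. A group of 6 windows there had 2.15% to 3.07% in A129-2 against 2.71% to 3.35% in AOS-14. These clusters were recurrent and yet low in both lines, unlike groups 1 to 4. In all, the 838 members formed 734 stretches, of which 637 were a single window.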

How the data were processed

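CpG methylation was measured in 1 library each of A129-2 and AOS-14. Per the labels' protocols, the DNA was enriched with a mouse methylation capture panel and bisulfite treated, while the title names reduced representation sequencing, and the labels do not settle which was used. BSMAP and mm10 are named per the submitters' processing notes, with the BSMAP version and any duplicate removal not given in the sources used here. The authors, per the file headers, deposited for each CpG a methylation level as a fraction, and the read counts behind it as methylated and total reads of both strands. Levels were recomputed from these deposited counts, in percent.

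The tables were joined by position, and CpGs with 10 or more reads in both libraries were compared. Window levels are means over compared CpGs, and differences are A129-2 minus AOS-14. Reads summed over the compared CpGs of each of 51142 windows with 5 or more were tested by a two-sided Fisher's exact test, and p-values were adjusted over all windows by the Benjamini-Hochberg method. Reads of the 51142 windows were simulated at the real depths for this comparison. Of windows lowered by 30 points 95.0% were called, of those lowered by 40 points 100%, and of the windows left unchanged 0. The simulation used 1 level per window and library, with no spread between CpGs, and took the difference from summed reads. It does not give the rate of false calls in the real data. Gene ends, promoters and miRNAs came from RefSeq tables of GRCm38.p6, the assembly of mm10. The gene table gives no strand, and no genome was used here.

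The windows named are, inside and outside genes separately, the 4 called with the largest difference, the 4 highest and 4 lowest, the 4 with most CpGs and, outside genes, the 4 farthest from a gene. Genes with 3 or more windows and hosts in 8 gene lists are also named. Predicted models are named as neighbours or as sources of a printed sequence, and some windows of the rule are not described. The members and lists were chosen with earlier results of these data known. Alternatives varied the read, CpG and distance minimums, the gene types, the window grid, the weighting, the size of difference, CCGG, deep windows, chromosome 10 and recurrent windows. Software was numpy 2.4.6, pandas 2.3.3, matplotlib 3.10.9 and scipy 1.17.1 under Python 3.11.15.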

Additional observations from a re-analysis of the deposited data

How the results depend on the processing

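Each of 11 results was recomputed under 14 alternatives, which gave 154 values. Of these, 92 stayed close to the value reported, 62 moved and 0 changed direction. A change of direction could be scored only for results that are differences. Close means within a fixed ratio of the value reported for counts, and within an interval over windows for the other results. Differences had to meet both. With 5 or 20 reads per CpG and with 2 kb, each of the 11 results stayed close by this measure. A difference of 10 points enters only the counts of calls, so the other results could not change with it. At 10 points 65 members were called lower against 44, which the ratio still counts as close.

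With 20 or more listed CpGs (1823 members) 150 were called lower, 2 members reached 50% in A129-2 and 136 in AOS-14, and the medians were 4.49% in A129-2 and 5.39% in AOS-14. With 50 or more (277 members) 8 were called, 8 reached 50% in AOS-14, and the medians were 2.30% in A129-2 and 2.96% in AOS-14. Without chromosome 10, an alternative chosen after seeing the data, 13 were called, 10 reached 50% in AOS-14 and the medians were 2.70% in A129-2 and 3.35% in AOS-14. Without windows over 3 times the median depth 19 were called, 15 reached 50% in AOS-14 and the medians were 2.63% in A129-2 and 3.30% in AOS-14. Without recurrent windows, also chosen after seeing the data, 1 was called, 0 reached 50% in AOS-14 and the medians were 2.51% in A129-2 and 3.19% in AOS-14. Without CCGG the medians were 0.734% in A129-2 and 0.975% in AOS-14, and weighted by reads 2.46% in A129-2 and 3.09% in AOS-14.

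The median difference was -1.11 points with 20 CpGs, -0.66 with 50, -0.66 weighted by reads, -0.28 without CCGG, -0.68 without chromosome 10, -0.70 without deep windows and -0.69 without recurrent windows. The median of members minus that of windows near gene ends was 1.93 points in A129-2 and 2.18 in AOS-14 with 20 CpGs, 0.0197 in A129-2 and 0.0875 in AOS-14 with 50, 0.205 in A129-2 and 0.244 in AOS-14 without CCGG, 0.268 in A129-2 and 0.301 in AOS-14 without chromosome 10, 0.205 in A129-2 and 0.257 in AOS-14 without deep windows, and 0.0837 in A129-2 and 0.146 in AOS-14 without recurrent windows. The median inside genes minus that outside was -5.12 points in A129-2 and -4.94 in AOS-14 at 10 kb, -7.39 in A129-2 and -8.60 in AOS-14 with 20 CpGs and -6.28 in A129-2 and -7.08 in AOS-14 with the ends of all gene types. It was -3.70 in A129-2 and -3.09 in AOS-14 on a grid shifted by 0.5 kb, -1.51 in A129-2 and -1.10 in AOS-14 without CCGG, -0.632 in A129-2 and -0.655 in AOS-14 without chromosome 10, and -0.459 in A129-2 and -0.531 in AOS-14 without deep windows. With 50 CpGs it was -0.181 in A129-2 and -0.308 in AOS-14, and without recurrent windows -0.138 in A129-2 and -0.236 in AOS-14, so the gap reported, -2.30 in A129-2 and -2.04 in AOS-14, rests largely on recurrent windows and on windows with fewer CpGs. The recurrent windows, the deep windows and chromosome 10 overlap, so these alternatives are not independent.

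With 3 or more shared runs as the link, the groups held 59, 39, 33, 33 and 24 windows. With 1 shared run the largest groups held 111, 93, 41, 34 and 24, and with 5 they held 57, 37, 32, 30 and 23. No paired analysis was possible because each line has 1 library and the labels give no replicate numbers. A window with few reads limits what can be seen: Pkd2 had 633 reads in A129-2, with an exact 95% interval of 0.349% to 2.05%.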

Other observations

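The X chromosome was outside the rule, and its CpG-dense windows were read in the same way. The 26 windows more than 5 kb from gene ends had medians of 3.50% in A129-2 against 4.29% in AOS-14, and 1 was called lower, against 5.04% of all tested windows. The 158 windows within 5 kb of a gene end had medians of 2.70% in A129-2 against 3.35% in AOS-14, with 0 called.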
